A study of Drosophila melanogaster with 72 samples.

Results

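The nuclear genes of respiratory complexes II to V were followed across whole males of Drosophila melanogaster that differed in their mitochondrial haplogroup and in their Y haplotype. The genes were chosen by name, as every gene in the deposited count table whose FlyBase symbol begins with SdhA to SdhD, UQCR, COX4 to COX8 or ATPsyn. This gave 47 of the 17324 features of the table. All 47 had at least 10 counts in 12 or more of the 72 libraries, and none fell outside that limit. ATPsynbetaL was nearest to it, with 10 or more counts in 59 libraries. Of the 47 genes, 29 are canonical subunits (4 of complex II, 6 of complex III, 8 of complex IV and 11 of complex V) and 18 are paralogs whose symbols add an L, or an L and a digit, to that of a subunit (3, 3, 8 and 4 in the same order). By the BDGP6.54 annotation 4 of the genes lie on the X chromosome (SdhBL, UQCR-14, COX6B and ATPsyndelta), 1 on chromosome 4 (ATPsynbeta) and the others on chromosomes 2 and 3.

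The males carried 1 of 6 mitochondrial haplogroups, named mtB38, mtB39, mtI02, mtN01, mtN02 and mtN23 after lines from Beijing (B), Ithaca (I) and the Netherlands (N). They carried 1 of 6 Y haplotypes, YB04, YB11, YN03, YN07, YZH23 and YZW139, the last pair from Zimbabwe. Mothers of mitochondrial replacement lines were crossed with fathers of Y replacement lines, and per the series' description both kinds of line have the 4361 nuclear background, so that all 36 combinations share it. A son takes both his mitochondria and his X chromosome from his mother. Each combination had 2 libraries, each from a pool of 10 whole males 3 to 5 days old out of a separate cross, which gives 12 libraries per haplotype. The 18 second replicates of mtN01, mtN02 and mtN23 are batch 2 by the labels, and all other libraries batch 1. In whole bodies, fewer cells of a type and less RNA per cell cannot be told apart.

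Complex II, succinate dehydrogenase, takes electrons from succinate. Complex III hands electrons to cytochrome c, complex IV passes them to oxygen, and complex V, the ATP synthase, uses the resulting proton gradient to make ATP. All subunits of complex II are encoded in the nucleus, whereas complexes III, IV and V each combine nuclear subunits with subunits encoded by mitochondrial DNA, so that products of both genomes meet in 1 enzyme. In Drosophila many duplicated nuclear genes for mitochondrial proteins are known to be expressed mainly in the testis.

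The libraries held 2454024 to 7671784 gene counts each (median 4792638). The kit reads 1 tag near the 3' end of each polyadenylated transcript, so levels are given as CPM, gene counts relative to the library total after TMM scaling, with no division by length. In 6 libraries over 20% of reads aligned to several places, against a median of 12.3% over all 72. These were the first replicates of mtB38 with YB04, YB11, YN03 and YN07, of mtI02 with YN03 and of mtN23 with YB04. Because 4 of the 6 carry mtB38, the differences of that haplogroup are given with and without them.

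The 29 canonical subunits matched by symbol together held 2.46% of the counts in the median library, with a range of 1.76% to 4.04%. Among these, complexes IV and V contributed most, with median summed levels of 9838 and 9406 CPM, followed by complex III with 3848 CPM and complex II with 1465 CPM. Subunits of complexes III, IV and V that go by other symbols are not in these sums. For complex III they include Cyt-c1 (median 1311 CPM), ox (1258 CPM) and RFeSP (703 CPM). Within complex II, SdhD, a membrane anchor, had the highest mean at 476 ± 89.9 CPM and SdhC, the other anchor, the lowest at 297 ± 62.5 CPM (SD, n = 72 libraries, as in the means that follow). The flavoprotein subunit SdhA and the iron-sulfur subunit SdhB lay between them at 379 ± 70.6 and 318 ± 76.2 CPM. Among the complex III subunits matched by symbol, the core protein UQCR-C2 was highest at 836 ± 268 CPM and the small subunit UQCR-11 lowest at 304 ± 54.4 CPM. Cyt-c1 and ox, complex III subunits with other symbols, had higher means of 1327 ± 329 and 1290 ± 267 CPM. Within complex IV, COX4 averaged 3388 ± 975 CPM, the highest level of all 47 genes, and COX7A 326 ± 76.2 CPM. COX4 ranged from 1962 to 6957 CPM, so that its lowest library was above the highest library of COX7A, at 613 CPM. Within complex V, ATPsynC, which forms the rotor ring in the membrane, averaged 2050 ± 434 CPM, and ATPsyndelta of the central stalk 329 ± 72.4 CPM.

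Of the 18 paralogs, 17 had a median below that of the subunit they resemble, and COX7AL2 stood above it. COX7AL2 had a median of 657 CPM and a range of 411 to 1132 CPM, and exceeded COX7A in 71 of 72 libraries, with a median of 210% of the COX7A level. COX4L had a median of 148 CPM, which is 4.57% of COX4. ATPsynGL had 130 CPM (15.2% of ATPsynG), COX7CL 109 CPM (9.23% of COX7C) and COX5BL 104 CPM (11.1% of COX5B). The next group held COX7AL at 61.8 CPM (19.9% of COX7A), SdhCL at 61.5 CPM (22.1% of SdhC), COX6CL at 61.4 CPM, COX6AL at 57.2 CPM and SdhBL at 54.9 CPM (17.2% of SdhB). The complex III paralogs were lower, UQCR-14L at 35.2 CPM (4.95% of UQCR-14), UQCR-11L at 26.9 CPM (8.97% of UQCR-11) and UQCR-6.4L at 26.6 CPM (3.55% of UQCR-6.4). ATPsynCF6L had 21.6 CPM (3.73% of ATPsynCF6), SdhAL 19.98 CPM (5.17% of SdhA), ATPsynepsilonL 19.6 CPM and COX6AL2 10.48 CPM. ATPsynbetaL was the least abundant gene, at 3.76 CPM in the median library and 0 counts in 1 library, or 0.577% of ATPsynbeta, the catalytic subunit. The partners of COX6AL, COX6AL2, COX6CL and ATPsynepsilonL go by other names, levy, cype and sun, and these paralogs reached 6.82%, 1.17%, 5.59% and 12.9% of them in the median library. Single libraries departed from this order, with SdhCL above SdhC in 1 library and ATPsynepsilonL above sun in 2. COX5BL, COX7CL and COX7AL lie near COX5B, COX7C and COX7A in the BDGP6.54 annotation. Of the 47 genes, 8 overlap another gene on their own strand and 16 one on the opposite strand, and the strand setting of the counting is not given in the sources used here.

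**Figure D1:**
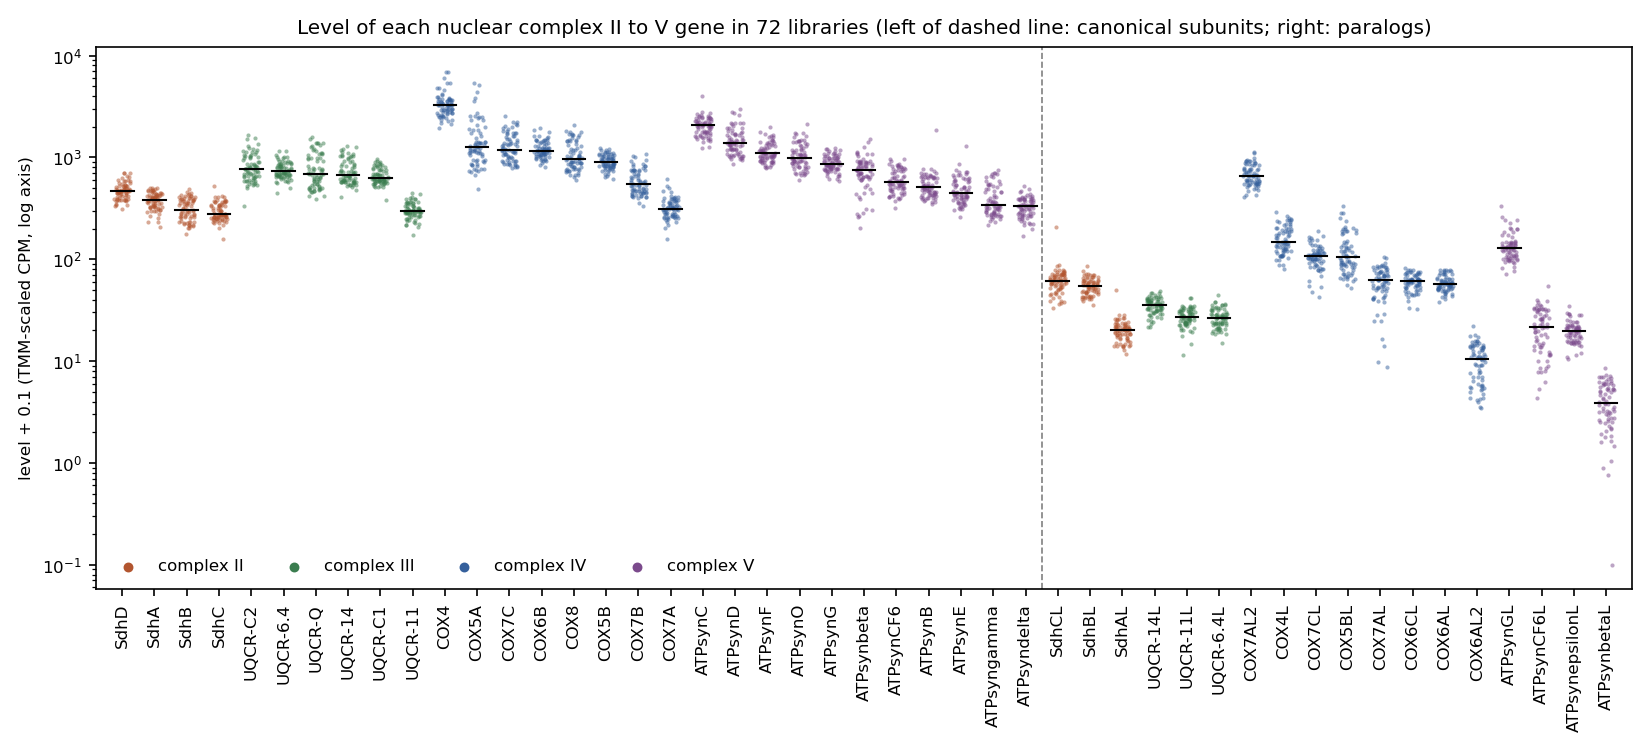
Level of each gene in the 72 libraries, in TMM-scaled CPM on a log axis after adding 0.1; points are libraries, black lines medians, colours complexes, and the dashed line parts the 29 canonical subunits from the 18 paralogs. COX4 is highest, COX7AL2 lies among the canonical subunits, and ATPsynbetaL is lowest.

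The first comparison asks whether these genes differ with the mitochondrial haplogroup. In edgeR's quasi-likelihood F test over the 6 haplogroups, 0 of 47 genes had an adjusted p under 0.05, where 2.04% of the 12470 genes tested did. Only 1 gene, 2.13% of the 47, had an unadjusted p under 0.05, against 15.9% of all genes. The members with the lowest p were ATPsynG (adjusted p = 0.313), COX7AL2 (0.348), SdhAL (0.446), ATPsynbeta (0.505) and UQCR-11 (0.519). limma-voom and DESeq2 gave 0 calls as well. The same F test with a replicate block called SdhD (adjusted p = 0.0197, against 0.855 without the block) and COX7CL (0.0467, against 0.679). The share of all genes called with the block is not given here. The haplogroup held a median of 3.82% of the log2 variance of the canonical subunits and 4.66% of that of the paralogs, against 7.38% over all genes tested. Batch, entered before the haplogroup and partly tied to it, held 12.0%, 5.00% and 6.13%. A factor of 6 levels takes some share of the variance even with no effect.

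Against the mean of the other 5 haplogroups, mtB38 was the single haplogroup with calls among these genes. Both called genes were lower there, ATPsynG, a small membrane subunit of the ATP synthase, and COX7AL2. They are 4.26% of the 47 genes, while 9.73% of all genes were called in mtB38 and 2.88% were called lower, so the share is no higher than that of genes at large when both directions are counted.

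ATPsynG had 613 to 898 CPM in the 12 mtB38 libraries with a median of 778 CPM, against 582 to 1234 CPM and a median of 899 CPM in the 60 libraries of the other haplogroups. All 12 mtB38 libraries lay below the median of the others, although the ranges overlap. The log2 fold change was -0.29 ± 0.088 (SE; 95% interval -0.47 to -0.11; adjusted p = 0.0302). The call was lost in fits without any 1 of 5 mtB38 libraries, the first replicates with YB04, YB11, YN03, YN07 and YZH23, where the adjusted p was 0.084 to 0.123 and the fold change -0.28 to -0.26. The 4 mtB38 libraries with many multiply aligned reads had 613 to 780 CPM and the 8 others 710 to 898 CPM, and without all 6 such libraries the fold change was -0.20 (adjusted p = 0.408). In batch 1 alone it was -0.29 (adjusted p = 0.0677), and batch 2 holds no mtB38 library.

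COX7AL2 had 411 to 845 CPM in the mtB38 libraries with a median of 561 CPM, against 472 to 1132 CPM and a median of 676 CPM in the others. In mtB38, 10 of 12 libraries were below the median of the others. The log2 fold change was -0.36 ± 0.1155 (SE; 95% interval -0.60 to -0.13; adjusted p = 0.0371). The call was lost without any 1 of 9 libraries, the first replicates of all 6 mtB38 combinations and those of mtN01 with YZW139 and of mtN23 with YB04 and YZH23, where the adjusted p was 0.0509 to 0.147 and the fold change -0.35 to -0.32. Without the 6 libraries the fold change was -0.24 (adjusted p = 0.492), and in batch 1 alone -0.36 (adjusted p = 0.0585). The mtB38 libraries with many multiply aligned reads had 411 to 571 CPM, and the 8 others 432 to 845 CPM. COX7A, the canonical counterpart, gave no call.

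A further 4 genes had an unadjusted p under 0.05 in mtB38 without passing the adjustment. With the 2 called genes they make 12.8% of the 47, against 25.5% of all genes. Without the 6 libraries of many multiply aligned reads, which leaves 8 of mtB38, these shares were 6.38% and 12.4%. The log2 fold change of COX5A was 0.51 ± 0.201 (adjusted p = 0.0992) and that of COX5BL 0.35 ± 0.1595 (adjusted p = 0.151), while UQCR-14L had -0.19 ± 0.0918 (adjusted p = 0.174) and ATPsynbeta -0.37 ± 0.176 (adjusted p = 0.1745). COX5A and COX5BL changed sign without the 6 libraries, to -0.14 (adjusted p = 0.829) and -0.09 (adjusted p = 0.892), and UQCR-14L had -0.13 (adjusted p = 0.623) and ATPsynbeta -0.19 (adjusted p = 0.776). COX5A in mtB38 was spread over 849 to 5343 CPM, against 495 to 4371 CPM in the other haplogroups. In the 4 mtB38 libraries with many multiply aligned reads COX5A had 2744 to 5343 CPM, and in the 8 others 849 to 2536 CPM with a median of 1205 CPM, beside a median of 1194 CPM in the 58 libraries of other haplogroups at or under 20% multiply aligned reads. COX5A passed in mtB38 when 1 of 4 libraries was left out, mtB38 replicate 2 with YB04, YB11 or YN03 or mtN23 replicate 1 with YB04 (adjusted p = 0.0207 to 0.0435). ATPsynbeta passed without mtB38 replicate 1 with YZW139 (-0.55, adjusted p = 0.0371), and COX5BL without mtB38 replicate 2 with YB11 (0.45, adjusted p = 0.0385).

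The other haplogroups gave 0 calls among the 47 genes. Of all genes, 0.0642% were called in mtB39, 0.401% in mtI02, 0.0401% in mtN01, 0.0241% in mtN02 and 0.144% in mtN23. In mtI02, 3 of the 47 genes (6.38%) had an unadjusted p under 0.05, against 11.03% of all genes. SdhAL was at 14.1 to 49.8 CPM in mtI02 with a median of 22.3 CPM, against a median of 19.5 CPM in the others (log2 fold change 0.28 ± 0.109, adjusted p = 0.296). The 49.8 CPM is the first replicate with YN03, 1 of the 6 libraries of many multiply aligned reads, and without these the fold change was 0.11 (adjusted p = 0.7375). SdhA had a median of 323 CPM in mtI02 against 401 CPM in the others and 11 of 12 mtI02 libraries below that value (-0.21 ± 0.0851, adjusted p = 0.3355). ATPsynGL had a fold change of 0.32 ± 0.148 (adjusted p = 0.406). In mtN01 the 3 genes, again 6.38% against 6.98% of all genes, were UQCR-11 (0.21 ± 0.0844), ATPsynbeta (0.39 ± 0.166) and COX7A (-0.23 ± 0.103), each with an adjusted p of 0.713. In mtB39, mtN02 and mtN23 there were 0 genes with an unadjusted p under 0.05.

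The second comparison asks whether the Y haplotype moves these genes. Again 0 of 47 genes passed the F test over the 6 Y haplotypes, where 4.15% of all genes did. An unadjusted p under 0.05 was reached by 4 of the 18 paralogs and 0 of the 29 canonical subunits, against 19.9% of all genes. The lowest p belonged to SdhBL (adjusted p = 0.0925), followed by COX5BL (0.1755), COX4L (0.181), ATPsynCF6L (0.198) and ATPsynGL (0.265), all paralogs. SdhBL resembles the iron-sulfur subunit of complex II and lies on the X chromosome, which all sons of a haplogroup's mothers share. Its median was 60.1 CPM with YB04, 49.4 CPM with YB11, 48.1 CPM with YN03, 52.2 CPM with YN07, 49.2 CPM with YZH23 and 60.5 CPM with YZW139. The range was 47.7 to 85.6 CPM with YB04 and 55.7 to 70.7 CPM with YZW139, and both overlap those of all other Y haplotypes, which span 35.3 to 71.4 CPM. DESeq2 called SdhBL between Y haplotypes (adjusted p = 0.04), as did the model without an interaction term (adjusted p = 0.041), and limma-voom did not (adjusted p = 0.0991). In batch 1 alone SdhBL had an adjusted p of 0.572.

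**Figure D2:**
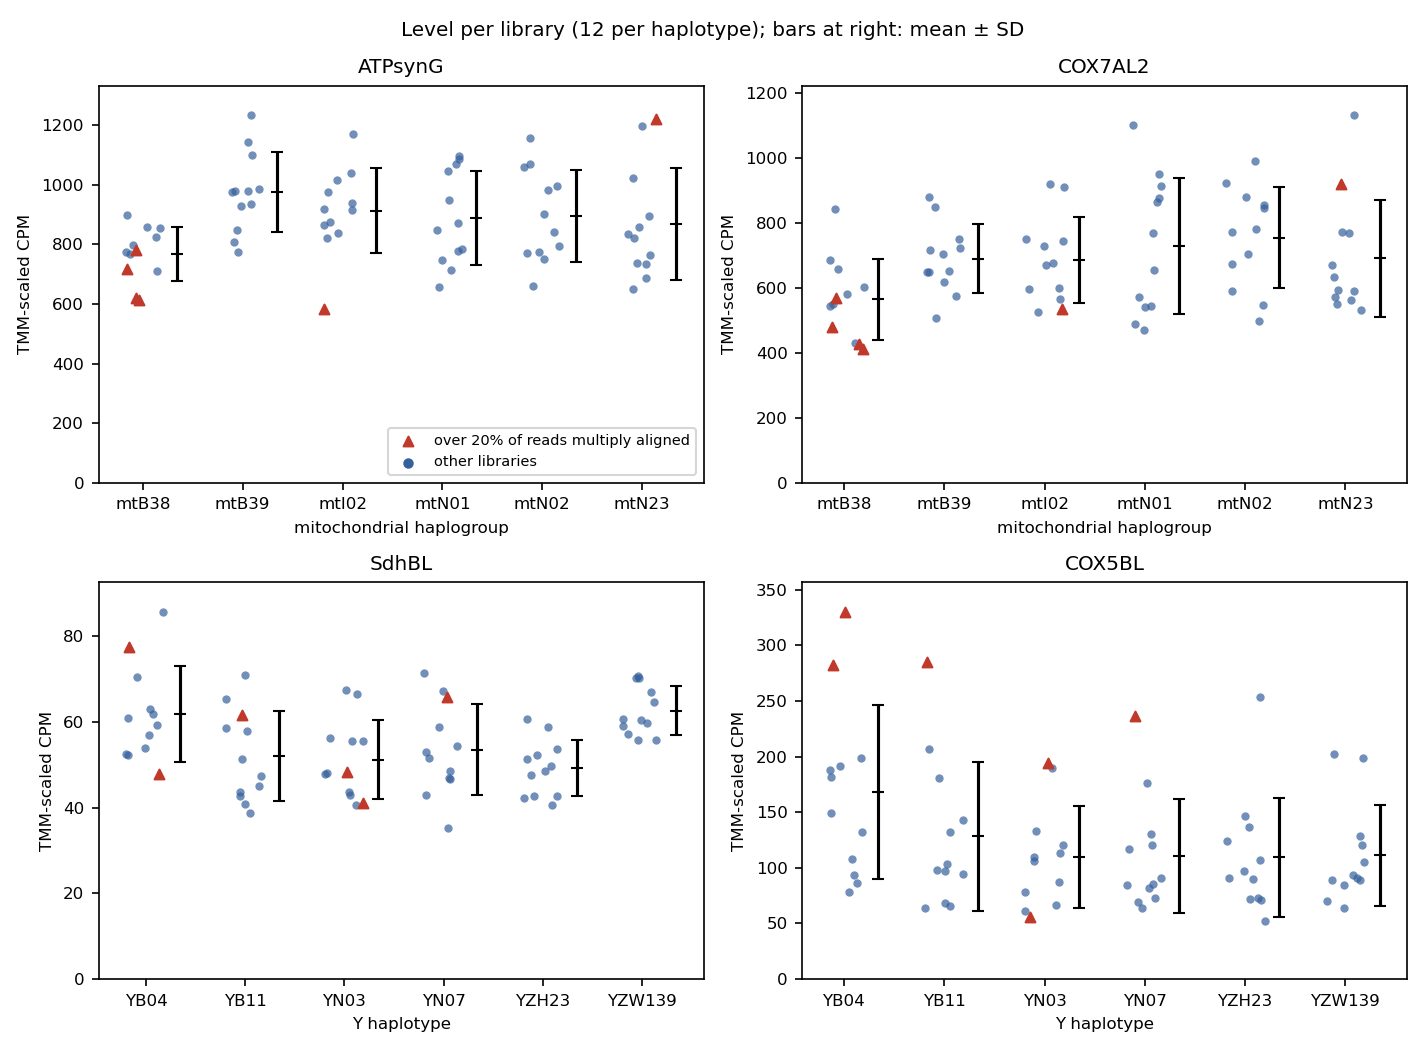
TMM-scaled CPM per library of ATPsynG and COX7AL2 by mitochondrial haplogroup and of SdhBL and COX5BL by Y haplotype, 12 libraries each, with mean ± SD at the right of each group. Triangles mark the 6 libraries with over 20% multiply aligned reads; 4 of them sit in mtB38, low for ATPsynG and COX7AL2, and 5 of the 6 are above 97.5 CPM for COX5BL, the median of the other 66 libraries.

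Single Y haplotypes gave 0 calls among the 47 genes, where 0.0561% of all genes were called in YB04, 2.46% in YB11, 0.152% in YN03, 0.016% in YN07, 1.36% in YZH23 and 0.168% in YZW139. YB04 had the most genes short of the adjustment. An unadjusted p under 0.05 was reached there by 15 of the 47 genes (31.9%), 13 higher and 2 lower, against 21.2% of all genes. The median log2 fold change in YB04 was 0.15 over the canonical subunits and 0.05 over the paralogs, against 0.02 over all genes. COX5BL led with 77.9 to 330 CPM in YB04 and a median of 166 CPM, against 52.4 to 285 CPM and a median of 97.0 CPM in the other Y haplotypes (log2 fold change 0.54 ± 0.149, 95% interval 0.24 to 0.85, adjusted p = 0.109). This was the largest of the 564 fold changes between haplotypes. Both YB04 libraries among the 6 with many multiply aligned reads were high for COX5BL, at 330 CPM with mtB38 and 282 CPM with mtN23. Without the 6 libraries the fold change of COX5BL was 0.37 (adjusted p = 0.362) and that of COX4L 0.28 (adjusted p = 0.368). The genes with an unadjusted p under 0.05 in YB04 then numbered 4 of 47 (8.51%), against 11.8% of all genes. COX4L had 119 to 291 CPM in YB04 with a median of 203 CPM, against 80.3 to 265 CPM and a median of 142 CPM (0.36 ± 0.105, adjusted p = 0.111). COX5BL and COX4L were above the median of the other Y haplotypes in 9 of 12 libraries each.

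The other 11 genes with a fold change above 0 and an unadjusted p under 0.05 in YB04 were COX5A (0.49 ± 0.191, adjusted p = 0.158), SdhBL, COX7B, COX7C, UQCR-C2, COX6AL, UQCR-Q, COX8, COX6B, ATPsyngamma and UQCR-14, with fold changes of 0.16 to 0.49 and adjusted p-values up to 0.219. COX5A had 0.19 (adjusted p = 0.680) without the 6 libraries. The 2 with one below 0 were ATPsynbeta (-0.41 ± 0.169, adjusted p = 0.171) and ATPsynCF6L (-0.45 ± 0.195, adjusted p = 0.185). In batch 1 alone the fold changes of all 15 genes except SdhBL and COX6AL were larger in size, such as 0.69 for COX5A and 0.63 for COX5BL. None was called there, with adjusted p-values of 0.191 or above. The sum of the canonical subunits had a median of 29004 CPM in YB04, with libraries at 18755 to 40389 CPM, the highest being the mtN23 library of many multiply aligned reads, against medians of 23268 to 25956 CPM in the other Y haplotypes. Without mtN23 replicate 2 of YB04 both COX5BL (0.61, adjusted p = 0.0406) and COX4L (0.39, adjusted p = 0.0424) passed, and COX5BL passed without mtB38 replicate 1 of YB11 (0.58, adjusted p = 0.0463).

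In YZW139 the 4 genes with an unadjusted p under 0.05 were paralogs with a fold change above 0. They are 8.51% of the 47 genes and 22.2% of the paralogs, against 16.8% of all genes. ATPsynGL had 123 to 333 CPM in YZW139 with a median of 140 CPM, against 72.1 to 243 CPM and a median of 122 CPM (log2 fold change 0.44 ± 0.139, adjusted p = 0.122). SdhBL had a fold change of 0.24 ± 0.0822 (adjusted p = 0.146). All 12 YZW139 libraries lay above the median of the other Y haplotypes for ATPsynGL and for SdhBL. ATPsynCF6L (0.45 ± 0.180, adjusted p = 0.206) and SdhAL (0.24 ± 0.103, adjusted p = 0.238) were the others. Over the 18 paralogs the median fold change in YZW139 was 0.17, with 16 above 0, and over the 29 canonical subunits it was -0.05, with 10 above 0, against 0.01 over all genes. In YZH23 the 3 genes with an unadjusted p under 0.05, 6.38% of the 47 against 10.4% of all genes, were paralogs with a fold change below 0. UQCR-6.4L had 18.5 to 33.3 CPM with a median of 22.5 CPM in YZH23, against a median of 27.2 CPM (-0.26 ± 0.0861, adjusted p = 0.171). SdhBL had -0.18 ± 0.0854 (adjusted p = 0.445) and COX4L -0.23 ± 0.1103 (adjusted p = 0.4665).

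The 14 testis markers measured, transcripts of late spermatogenesis such as Mst84Da, ocn and dj, were read beside the paralogs. Their summed level was 6879 to 11251 CPM in YZW139 with a median of 8089 CPM and 6227 to 9994 CPM in YB04 with a median of 8069 CPM. In the other Y haplotypes it had medians of 6946 CPM (YB11), 7407 CPM (YN03), 6980 CPM (YN07) and 6948 CPM (YZH23), over a range of 5611 to 10376 CPM. None of the 14 was at 0 in any library, and 0 of 14 were called between Y haplotypes. The paralogs other than COX7AL2 had a summed level with medians of 1004 CPM in YZW139 and 1076 CPM in YB04, against 881 to 1001 CPM in the other Y haplotypes. The part of the testis transcripts in these values was not tested.

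**Figure D3:**
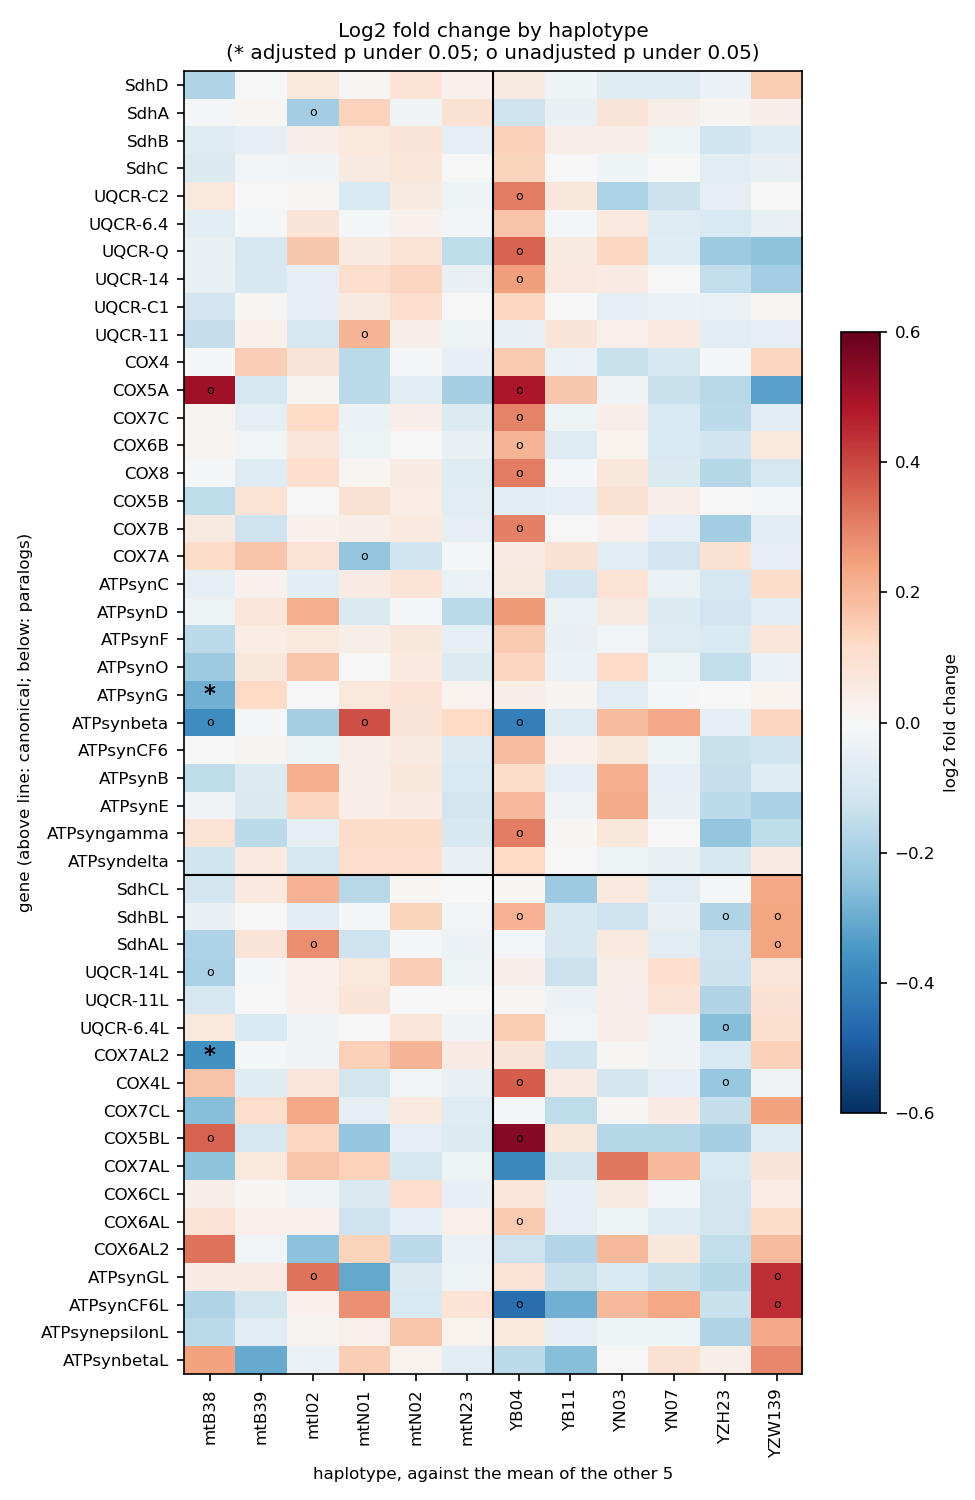
Log2 fold change of each gene (rows; canonical subunits above the line, paralogs below) in each haplotype against the mean of the other 5 (columns). Stars mark the 2 calls, ATPsynG and COX7AL2 in mtB38, and circles the genes with an unadjusted p under 0.05, of which 15 are in YB04.

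The third comparison asks whether the effect of a Y haplotype depends on the haplogroup. In the interaction test 0 of 47 genes passed, as did 0.0% of all genes, and 0 of 47 had an unadjusted p under 0.05, against 1.92% of all genes. limma-voom and DESeq2 also called 0 of the 47. The lowest p belonged to ATPsynCF6L, SdhCL, UQCR-6.4L, COX6AL2 and UQCR-11, each with an adjusted p of 1. For all 47 genes and all 12 haplotypes the 95% interval of the log2 fold change, not adjusted for the number of genes, lay within 1 in either direction, that is within a doubling or a halving. It lay within 0.5 for 33 of the 47 genes in YB04 and for 38 to 45 in the other 11 haplotypes.

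Single libraries spread widely. COX5A ranged 10.8-fold over the 72 libraries, ATPsynbeta 7.42-fold and ATPsynCF6L 12.8-fold, while COX5B stayed within 1.99-fold and ATPsynG within 2.12-fold. In 35 of the 47 genes at least 1 combination had libraries more than 2-fold apart. The libraries of mtN23 with YB04 had 4371 and 755 CPM of COX5A, and those of mtB38 with YB11 5122 and 1059 CPM. COX7AL had 65.0 and 8.57 CPM in the libraries of mtB38 with YZW139. The residual held a median of 49.4% of the variance of the canonical subunits and 45.9% of that of the paralogs, against 45.0% over all genes. With 35 residual degrees of freedom in 72 libraries, random spread alone would leave a residual share of about this size.

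The canonical subunits tended to be high or low in the same libraries, and the relation of level to transcript length differed between such libraries, with exceptions. Across the 12365 genes with a transcript length, Spearman's rho between length and a gene's level relative to its median over libraries was computed within each library. It had a median of 0.175 (0.0183 to 0.332) in the 18 libraries where at most 3 of the 29 canonical subunits were above their own median. In the 23 libraries with at least 24 above it, the median was -0.17 (-0.318 to 0.2), with 3 libraries above 0. The 6 libraries with many multiply aligned reads had 13 to 25 of the 29 above their own median. Their median rho was 0.125 (-0.0697 to 0.18), with 4 above 0. By batch, the median library had 3 of the 29 above their own median in batch 2, against 18 in batch 1. In 23 of the 72 libraries at least 24 of the 29 were above their own median over libraries, and in 18 libraries at most 3 were, with extremes of 28 and 0. In the 6 libraries with many multiply aligned reads COX5A had a median of 3996 CPM (1378 to 5343 CPM), against 1194 CPM (495 to 3830 CPM) in the other 66. COX5BL had 259 against 97.5 CPM in the same medians, ATPsyngamma of the central stalk 693 against 334 CPM, and UQCR-Q 1235 against 667 CPM. Lower there were ATPsynbeta (414 against 770 CPM), COX7CL (57.8 against 110 CPM) and ATPsynCF6L (10.54 against 22.1 CPM). COX7CL lay below the median of the other 66 libraries in all 6 and COX5A above it in all 6. The first replicate of mtI02 with YN03 stood apart even among these. It had the highest level of 8 of the 47 genes and the lowest of 6, with ATPsynB, a subunit of the peripheral stalk, at 1867 CPM against a median of 509 CPM over all libraries, and SdhCL at 209 against 61.5 CPM. Its UQCR-C2, at 332 CPM, was the lowest of the 72. The log2 fold change of ATPsynB in YN03 was 0.22 ± 0.115 with this library (adjusted p = 0.527) and -0.01 without the 6.

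**Figure D4:**
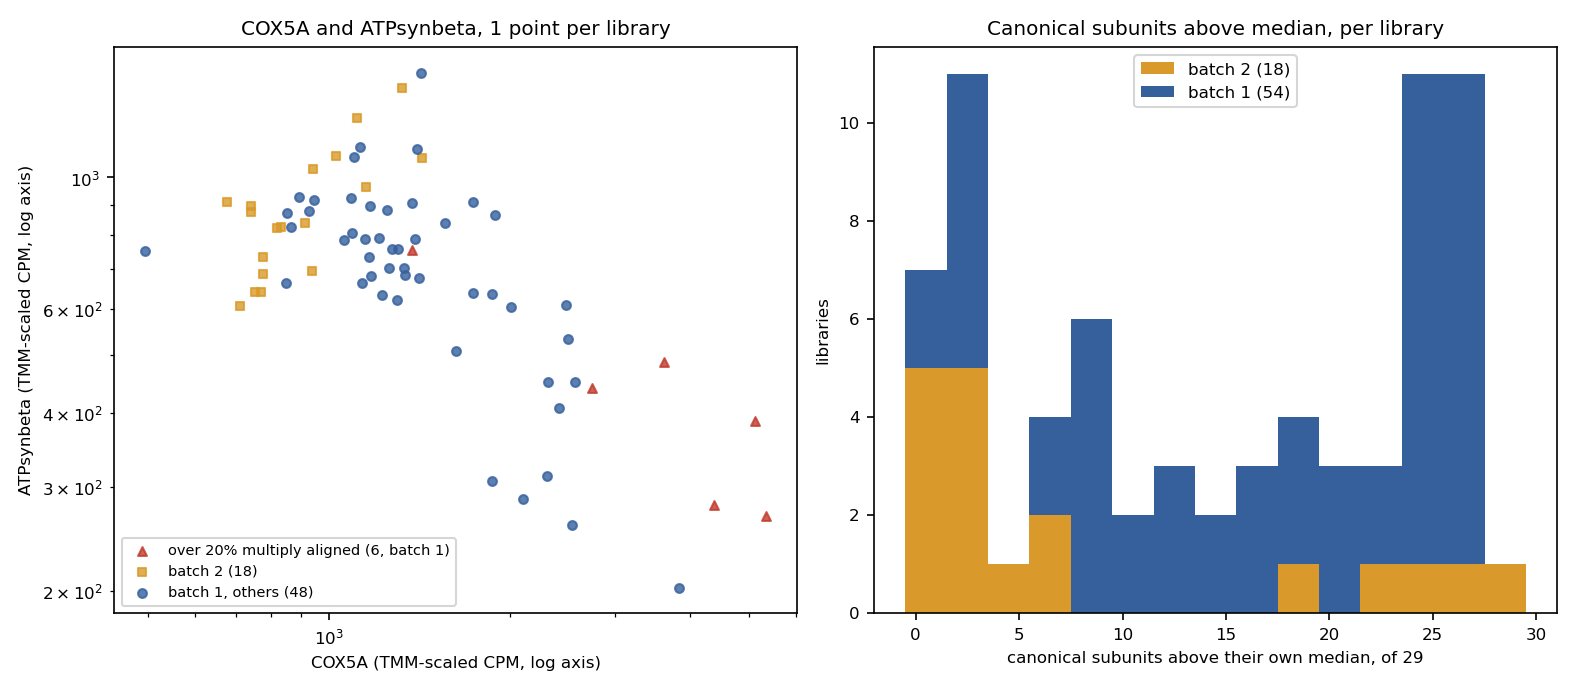
Left, COX5A against ATPsynbeta in TMM-scaled CPM on log axes, 1 point per library, marked by batch and by multiply aligned reads. Right, number of libraries by how many of the 29 canonical subunits lie above their own median, batch 2 stacked below batch 1; the counts run from 0 to 28, with 18 libraries at 3 or fewer and 23 at 24 or more.

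Batch moved more of these genes than either haplotype. With all 36 combinations in the model, 22 of the 47 genes (46.8%) differed between batch 2 and batch 1, where 29.3% of all genes did. Of the 22, 18 were lower in batch 2 (38.3% of the 47, against 14.6% of all genes) and 4 were higher (8.51%, against 14.7%). Batch 2 is made of the second replicates of mtN01, mtN02 and mtN23 alone. With the replicate number as a further term, which the 18 combinations wholly in batch 1 allow, 23 genes were called, 19 lower and 4 higher. In that fit 37.8% of all genes were called. Without the 6 libraries of many multiply aligned reads 21 of the 47 were called, 17 lower and 4 higher, against 29.2% of all genes. Among canonical subunits, 13 were lower, SdhB of complex II with the lowest p (log2 fold change -0.63 ± 0.0944, adjusted p = 3e-06), with COX5A (-0.68 ± 0.214, adjusted p = 0.01435), UQCR-Q (-0.59 ± 0.1655, adjusted p = 0.00658) and COX8 (-0.51 ± 0.142, adjusted p = 0.00579). SdhA was the 1 canonical subunit that was higher (0.265 ± 0.08475, adjusted p = 0.0164). SdhA and SdhB, whose products bind each other in the same enzyme, thus moved in opposite directions. Among paralogs, COX4L (-0.53 ± 0.115), COX5BL, COX6AL, COX6CL and UQCR-6.4L were lower, and COX6AL2 (0.89 ± 0.171), ATPsynCF6L (0.71 ± 0.201) and ATPsynbetaL (0.77 ± 0.246) higher. The summed canonical level had a median of 20543 CPM in batch 2 (17603 to 34212 CPM), against 25979 CPM in batch 1 (18213 to 40389 CPM). The 13 muscle markers measured summed to 4720 to 7671 CPM in batch 2 and 3565 to 6445 CPM in batch 1, with 5 of the 13 called higher in batch 2. Of the 14 testis markers 3 were called higher and 1 lower. Called lower were also 3 of 9 accessory gland, 3 of 8 midgut and 3 of 8 eye genes, and 3 of 10 assembly factors. Of 18 tricarboxylic acid cycle enzymes 5 were lower and 1 higher. Of the 8 nuclear subunits with other symbols 1 was higher and 1 lower. mt:CoIII, mt:Cyt-b and apolpp of the fat body list were higher. The rho with transcript length was above 0 in all 18 libraries of batch 2 (median 0.206, 0.0081 to 0.332), against 18 of the 54 of batch 1 (median -0.104, -0.318 to 0.21). Of the 4 higher genes, SdhA, COX6AL2 and ATPsynbetaL have annotated transcripts of 2750, 3077 and 2036 bases and ATPsynCF6L one of 635. Among the 18 lower ones, SdhB has 1219 bases and COX5A 730. ATPsyndelta (3817 bases), SdhAL (2148) and ATPsynbeta (2048) have long transcripts too, and none of these genes was called higher. The part of transcript length or of muscle, testis or other tissue transcripts in the batch difference was not tested.

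**Figure D5:**
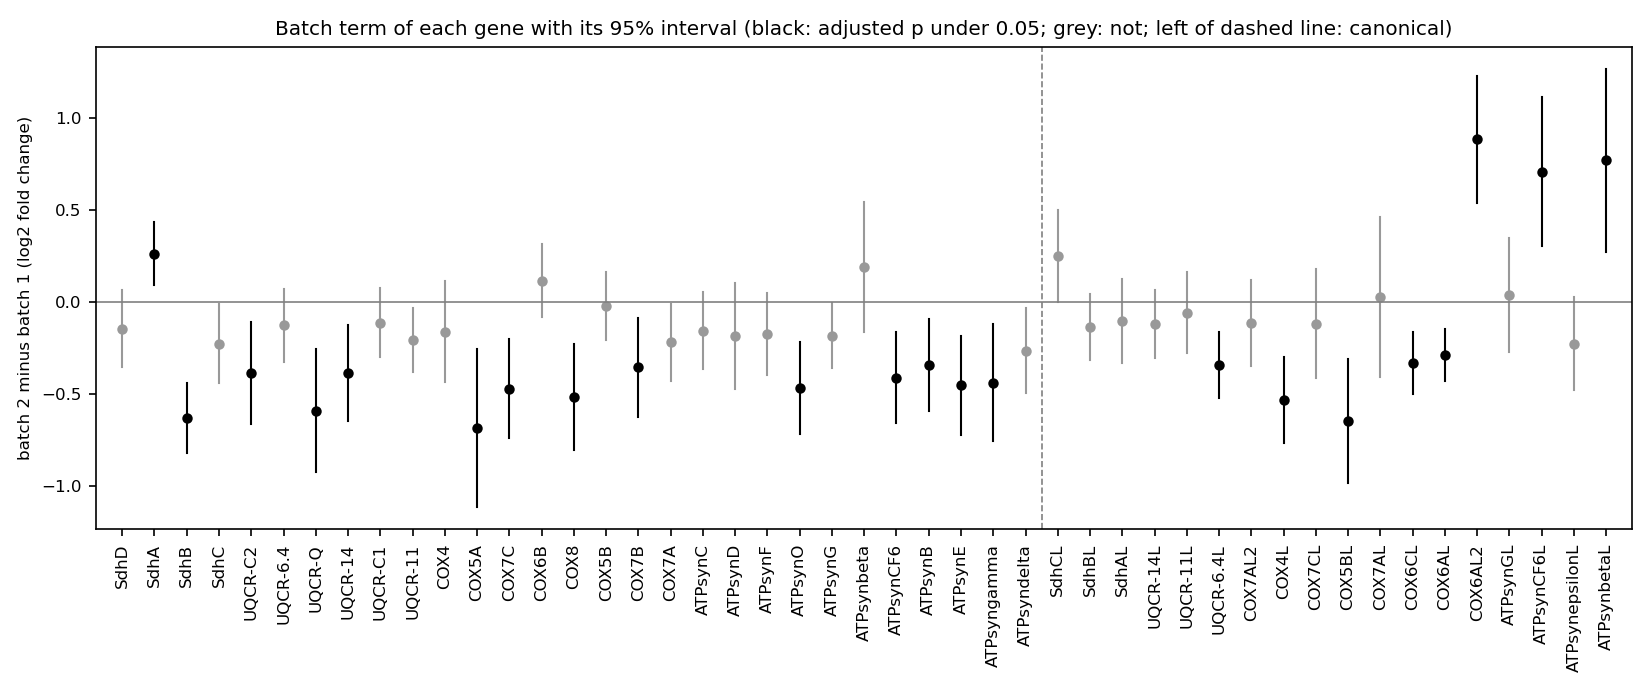
Log2 fold change of each gene in batch 2 against batch 1 with its 95% interval, black where the adjusted p is under 0.05. Of the 22 called genes 18 are below 0; SdhA, COX6AL2, ATPsynCF6L and ATPsynbetaL are above it.

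The other genes of the complexes were read from lists. The 6 subunits of complexes III, IV and V that mitochondrial DNA encodes gave 0 calls in the tests over all haplogroups, all Y haplotypes and the interaction, and 2 calls in mtB38, both lower. Of all genes, 9.73% were called in mtB38 and 2.88% were called lower, to be read beside each list count in mtB38. mt:ATPase6 of complex V had a median of 1701 CPM in mtB38 (759 to 2859 CPM), against 2259 CPM in the other haplogroups (log2 fold change -0.51 ± 0.161, adjusted p = 0.037). mt:CoII of complex IV had 5020 CPM (2619 to 7570 CPM), against 6393 CPM (-0.45 ± 0.146, adjusted p = 0.0429). Of the others, mt:CoIII had -0.75 ± 0.255 (adjusted p = 0.0519), mt:Cyt-b of complex III -0.74 ± 0.3075 (adjusted p = 0.118), mt:CoI 0.24 ± 0.1525 (adjusted p = 0.331) and mt:ATPase8 0.01 ± 0.274 (adjusted p = 0.991). Without the 6 libraries of many multiply aligned reads mt:ATPase6 had -0.46 (adjusted p = 0.364) and mt:CoII -0.38 (adjusted p = 0.356), and neither was called. In the same fit mt:CoIII had -0.69 (adjusted p = 0.378) and mt:Cyt-b -0.51 (adjusted p = 0.597). mt:CoI changed sign, to -0.25 (adjusted p = 0.529), as did mt:ATPase8, to -1.27 (adjusted p = 0.455), which had a median of 1.82 CPM in mtB38 and 1.38 CPM in the others. In complex V, ATPsynG and mt:ATPase6 were called lower in mtB38 over all libraries, and the other 10 canonical nuclear subunits were not called. Of the 8 nuclear subunits of complexes II to V that go by other symbols (blw, the alpha subunit of ATP synthase, sun, levy, cype, Cyt-c1, RFeSP, ox and the testis protein knon), 0 were called in any of the 15 haplotype tests, nor were the 2 cytochrome c genes or the 10 assembly factors tested. Of 18 enzymes of the tricarboxylic acid cycle, 2 were called in mtB38, Idh lower (-0.39 ± 0.113, adjusted p = 0.0248) and kdn, citrate synthase, higher (0.46 ± 0.141, adjusted p = 0.0316). Neither was called without the 6 libraries, with -0.19 for Idh (adjusted p = 0.514) and 0.46 for kdn (adjusted p = 0.245).

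Markers of other tissues were called in mtB38 as well, where 9.73% of all genes were called and 2.88% were called lower. Of 9 accessory gland proteins 5 were lower, led by Acp63F (-0.43 ± 0.106, adjusted p = 0.00886), Acp95EF (-0.53 ± 0.137, adjusted p = 0.0113), Acp76A (-0.50 ± 0.142, adjusted p = 0.0212) and Acp36DE (-0.31 ± 0.0947, adjusted p = 0.0289). Of 13 muscle markers 1, sls, was higher (0.49 ± 0.138, adjusted p = 0.0212). Of 8 midgut proteases 2 were higher, Jon25Bi (0.77 ± 0.184, adjusted p = 0.00722) and Jon25Bii (0.83 ± 0.200, adjusted p = 0.00829), and of 8 eye genes 1, trpl, was lower (-0.62 ± 0.174, adjusted p = 0.0191). Without the 6 libraries none of these genes was called, and the lowest p was that of Acp36DE (-0.47, adjusted p = 0.05005). The fold change of Acp36DE was larger in size than with them, and those of the other called markers were smaller. That fit holds 8 mtB38 libraries, and 12.4% of all genes had an unadjusted p under 0.05 in mtB38, against 25.5% with all libraries. The part of the smaller number of libraries in the lost calls was not tested. The part of these tissues in the levels of ATPsynG and COX7AL2 was not tested. In the remaining haplogroups p-cup of the testis list was higher in mtB39 (1.22 ± 0.251, adjusted p = 0.0332), 3 midgut proteases were higher and ninaE was lower in mtI02, and 5 midgut proteases were lower in mtN23. All 8 eye genes were higher in YB11. Over all Y haplotypes the 8 eye genes, Jon66Ci of the midgut list and apolpp of the fat body list were called. Over all haplogroups 5 midgut proteases, the eye genes ninaE and ninaC, and p-cup were called. The shares of all genes called were 0.0642% in mtB39, 0.401% in mtI02, 0.144% in mtN23 and 2.46% in YB11. Over all Y haplotypes the share was 4.15%, and over all haplogroups 2.04%.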

How the data were processed

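Polyadenylated RNA of whole males was made into 3' tag libraries with the Lexogen QuantSeq FWD kit, per the labels' protocols. STAR 2.6 and HTSeq 0.11.0 are listed in the submitters' processing notes, as are Trimmomatic 0.36, DESeq2 and FastQC 0.11.5. Genome build, annotation and strand setting: not given in the sources used here. Raw gene counts were deposited by the authors in 1 table and in 72 library files, which hold identical values, and 0 sample columns of the table were left unmatched. Symbols and chromosomes were taken by FlyBase ID from the Ensembl BDGP6.54 annotation, which named 17037 of 17324 features. Rows that name no gene were left out.

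The counts were fitted with edgeR 4.0.16 (quasi-likelihood, TMM scaling, R 4.3.3) over the 12470 genes that passed its filter for the 36 combinations. The model had 1 coefficient per combination and a batch term, with 35 residual degrees of freedom. F tests covered haplogroup, Y haplotype and their interaction, and each haplotype was set against the mean of the other 5. P-values were adjusted over all tested genes by Benjamini-Hochberg, and a call is an adjusted p under 0.05. Variance shares are sequential sums of squares of log2 CPM (prior count 2). The fit was tested on simulated data. Alternatives used limma-voom 3.58.1, DESeq2 1.42.0, other scalings and filters, batch 1 alone and left-out libraries. Replicate numbers were not shown to pair the libraries in every combination, and the main model has no replicate block. First and second replicates did differ within batch 1. Among the 18 combinations wholly in it, the summed assembly factors were higher in the second library in all but mtI02 with YN03 (1625 and 901 CPM). The main model leaves this difference in the residual, and its cause was not tested. Among combinations wholly in batch 1, deviations of same-numbered libraries correlated at a median of 0.173, with 99 of 153 pairs over 0.1. A replicate block changed some calls, as given at the end.

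Named are each called gene, up to 5 genes of lowest p per F test, the highest and lowest of the 29 canonical subunits in each complex, and all paralogs. Genes with an unadjusted p under 0.05, and those with wide spread between libraries or a batch difference, were named after their values were seen. The members and lists were chosen with earlier results of these data known.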

Additional observations from a re-analysis of the deposited data

How the results depend on the processing

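Between haplogroups 0 of the 47 genes were called in 9 of 10 alternatives and in all 72 fits that left out 1 library. Between Y haplotypes 0 were called in 7 of 10 alternatives and in those 72 fits, and 1, SdhBL, was called without an interaction term and with DESeq2. The interaction gave 0 calls in 9 alternatives and those 72 fits. Over the 12 single haplotypes the 2 calls became 0 without a filter on low counts, 0 in batch 1 alone, 0 without the 6 libraries of many multiply aligned reads and 1 (COX5A) without a batch term. All of these were in mtB38, where leaving out 1 library gave 0 to 4 calls. In YB04 it gave 0 to 2. In YZW139, 1 gene, ATPsynGL, was called without an interaction term (adjusted p = 0.0419). For ATPsynG in mtB38 the alternatives gave -0.34 to -0.20 (adjusted p = 0.00433 to 0.408), and for COX7AL2 -0.45 to -0.24 (adjusted p = 0.0034 to 0.492). ATPsynB in YN03 changed sign to -0.0128 without the 6 libraries, which include the YN03 library with its highest level. The other 9 haplotypes gave 0 calls in every alternative, and leaving out single libraries was not run for the 10 haplotypes other than mtB38 and YB04. Those fits kept the dispersion trend of all 72 libraries. The batch difference held 20 to 23 calls among the 47 genes in 6 alternatives chosen after seeing the data. In the same fits 20.2% to 37.8% of all genes were called. The cause of the other changes was not tested.

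Replicate numbers were not shown to pair libraries in every combination, though first and second replicates differed within batch 1, as given above. Deviations of same-numbered libraries correlated at -0.58 to 0.74 over 630 pairs of combinations, with 314 over 0.1. Among combinations wholly in batch 1, 99 of 153 pairs were over 0.1 (median 0.173). With a replicate block, 2 genes (SdhD and COX7CL) were called between haplogroups, 1 (SdhBL) between Y haplotypes, 7 over the 12 single haplotypes, 6 of them in mtB38 and 1 (ATPsynGL) in YZW139. The share of all genes called with the block in these tests is not given here, so the counts cannot be set beside it. For the batch term the block raised that share from 29.3% to 37.8%.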
